A study of Homo sapiens with 6 samples.

Results

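The regions described here are the SUMO-2/3 peaks of HL-60 cells whose midpoint lay within the first or last 1 Mb of an autosome, measured from the chromosome ends of the hg19 build (GRCh37). They were chosen by the positions of the called peaks alone, and numbered 3013 of 149899 peaks in 3 lists: 838 of 44265 in mock-treated cells, 1229 of 72279 in Ara-C-treated cells and 946 of 33355 in DNR-treated cells. HL-60 is a line of human promyelocytic leukaemia cells. The cells received 2 µM Ara-C (cytarabine), 1 µM DNR (daunorubicin) or water (mock) for 2 h, and chromatin carrying SUMO-2/3 was recovered with an antibody and sequenced. Each list came from 1 library made from 3 pooled biological replicates, so the variation between replicates cannot be estimated. Intervals given here are 95% intervals that cover counting error only: exact Poisson for numbers per Mb, Wilson for shares and exact conditional binomial for ratios, except where stated. No difference between conditions could be tested. Read depth is unknown, since the files hold only peak positions. The same calling threshold was used for every list, but scaling, pile-up filtering and input subtraction were done per library, so a difference in peak numbers between lists and a difference in sensitivity cannot be told apart.

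SUMO-2 and SUMO-3 are small ubiquitin-like proteins that are attached to lysines of other proteins, many of them transcription factors, repressors and chromatin proteins. The ends of human chromosomes carry telomere repeats, then subtelomeric blocks copied between chromosomes, then gene-rich sequence with a high GC content on many arms. Minisatellites, which are tandem arrays of a unit longer than that of a microsatellite, are concentrated towards chromosome ends. Ara-C is a nucleoside analogue that is built into DNA during replication. DNR is an anthracycline that intercalates into DNA, traps topoisomerase II and can evict histones.

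The 5 widest DNR members were tandem arrays, while the 5 widest members of each other list were a mixture. The lines below give the plus strand of GRCh37 in lower case, with a stretch from the widest mock peak, from the Ara-C peaks of rank 1 and 3 in width and from the 5 widest DNR peaks. In all lines but the rank 1 Ara-C line, capitals mark bases in any 12-base word that occurred at least 3 times within the peak. In the rank 1 Ara-C line, which held no such word, capitals mark a match to the B box consensus, the internal promoter element of tRNA genes.
Widest mock peak, chr4:51751-51900: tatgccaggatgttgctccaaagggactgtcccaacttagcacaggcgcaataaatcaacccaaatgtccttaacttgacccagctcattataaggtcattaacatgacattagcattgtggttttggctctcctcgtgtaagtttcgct
Widest Ara-C peak, chr1:249167956-249168195: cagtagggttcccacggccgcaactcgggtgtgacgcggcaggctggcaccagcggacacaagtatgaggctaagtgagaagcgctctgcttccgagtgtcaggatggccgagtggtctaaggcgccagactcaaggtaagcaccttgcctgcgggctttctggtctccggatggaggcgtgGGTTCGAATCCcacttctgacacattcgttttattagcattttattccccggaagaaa
Ara-C peak of rank 3 in width, chr18:108966-109145: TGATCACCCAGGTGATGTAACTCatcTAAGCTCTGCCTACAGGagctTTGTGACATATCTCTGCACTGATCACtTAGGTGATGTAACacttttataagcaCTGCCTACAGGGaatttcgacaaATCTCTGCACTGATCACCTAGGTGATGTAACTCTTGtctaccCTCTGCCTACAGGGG
Widest DNR peak, chr22:50776831-50777070: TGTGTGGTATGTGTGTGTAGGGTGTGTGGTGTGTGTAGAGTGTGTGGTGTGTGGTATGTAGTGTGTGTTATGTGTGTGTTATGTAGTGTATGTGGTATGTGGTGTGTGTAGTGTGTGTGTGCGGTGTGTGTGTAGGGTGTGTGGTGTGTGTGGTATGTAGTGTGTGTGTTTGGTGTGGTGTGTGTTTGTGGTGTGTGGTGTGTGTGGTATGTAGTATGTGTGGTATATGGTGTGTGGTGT
DNR peak of rank 2 in width, chr2:242807000-242807179: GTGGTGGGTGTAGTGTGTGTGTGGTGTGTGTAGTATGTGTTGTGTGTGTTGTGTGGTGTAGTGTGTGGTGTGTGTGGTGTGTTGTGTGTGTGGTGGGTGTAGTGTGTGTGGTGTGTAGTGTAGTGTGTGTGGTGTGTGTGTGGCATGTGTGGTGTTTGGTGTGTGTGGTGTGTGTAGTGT
DNR peak of rank 3 in width, chr14:107147544-107147723: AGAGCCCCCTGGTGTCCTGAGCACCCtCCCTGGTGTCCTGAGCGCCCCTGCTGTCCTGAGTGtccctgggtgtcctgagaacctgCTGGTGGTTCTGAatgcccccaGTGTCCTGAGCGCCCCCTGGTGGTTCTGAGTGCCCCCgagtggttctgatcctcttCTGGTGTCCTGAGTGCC
DNR peak of rank 4 in width, chr16:90098739-90098918: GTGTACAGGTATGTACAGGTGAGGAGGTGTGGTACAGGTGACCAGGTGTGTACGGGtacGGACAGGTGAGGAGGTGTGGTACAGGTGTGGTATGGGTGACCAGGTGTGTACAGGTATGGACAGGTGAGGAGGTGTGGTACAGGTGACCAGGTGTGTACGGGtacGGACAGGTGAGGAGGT
DNR peak of rank 5 in width, chr11:356918-357097: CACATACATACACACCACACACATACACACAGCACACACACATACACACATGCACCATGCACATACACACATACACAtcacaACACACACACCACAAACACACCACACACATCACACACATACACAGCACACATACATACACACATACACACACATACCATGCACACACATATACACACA
The widest mock peak held no repeated word. The mock and Ara-C peaks of rank 2 did, over 18.8% and 31.8% of their bases, and the Ara-C peak of rank 3 was an array with 56.5% of its bases in repeated words at a spacing of 69 bp. In the 5 DNR peaks, 55.1% to 93.3% of bases fell in repeated words. The most frequent spacing between copies of a word in them was 18 bp in ranks 1 and 2, 38 bp in rank 3, 58 bp in rank 4 and 150 bp in rank 5.

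Terminal megabases held more peaks per sequenced Mb than the sequence 1 to 5 Mb from the same ends in the mock and DNR lists, while the Ara-C margin was small. Of the 44 autosome ends, 39 had sequence in hg19, and the short arms of chromosomes 13, 14, 15, 21 and 22 had none. Over 36.7 Mb of sequenced terminal DNA, the mock list had 22.9 peaks per Mb (21.3 to 24.5), against 19.8 in the 155 Mb between 1 and 5 Mb and 16.0 in the interior of the chromosomes. The ratio of terminal to 1 to 5 Mb density was 1.15 (1.07 to 1.25). In the Ara-C list the densities were 33.5, 31.4 and 26.2 peaks per Mb, and the ratio was 1.07 (1.00 to 1.14), and its interval included 1 within the outer 0.5 Mb (1.03, 0.942 to 1.12), without 18q, the end with most peaks (1.03, 0.964 to 1.10), and without peaks that held a tandem repeat (1.04, 0.975 to 1.11). In the DNR list they were 25.8, 20 and 11.7 peaks per Mb, and the ratio was 1.29 (1.20 to 1.39). Against the interior, terminal density was 1.42 times as high in mock, 1.28 times in Ara-C and 2.21 times in DNR cells. The terminal megabases thus held 1.91% of the autosomal mock peaks, 1.72% of the Ara-C peaks and 2.86% of the DNR peaks.

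The profile was not highest at the very ends, and nothing in it marked the 1 Mb boundary. In the outermost 100 kb the lists had 16.4 (mock), 23 (Ara-C) and 15.2 (DNR) peaks per Mb. Just inside the boundary, at 900 to 1000 kb, the values were 24.0, 31.6 and 27.4 peaks per Mb, and just outside, at 1000 to 1100 kb, 21.5, 32.5 and 33.0. DNR density was 25.8 peaks per Mb in the first Mb, 25.7 from 1 to 2 Mb, 19.3 from 2 to 3 Mb and 17.5 from 4 to 5 Mb. Within the outer 0.5 Mb alone, DNR density did not exceed that from 0.5 to 5 Mb, with a ratio of 1.00 (0.898 to 1.11), and the mock ratio was 1.07 (0.959 to 1.19). Without the peaks that held a tandem repeat, described below, the ratios over the full 1 Mb were 1.13 in mock and 1.16 in DNR cells. Part of the outermost sequence is shared between chromosomes: 85.3% of 50-base stretches in the terminal megabases occurred only once in the assembled chromosomes, against 93.7% from 1 to 5 Mb. Per Mb of unique sequence, terminal densities were 26.8 (mock), 39.3 (Ara-C) and 30.3 (DNR), against 21.1, 33.5 and 21.4.

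**Figure D1:**
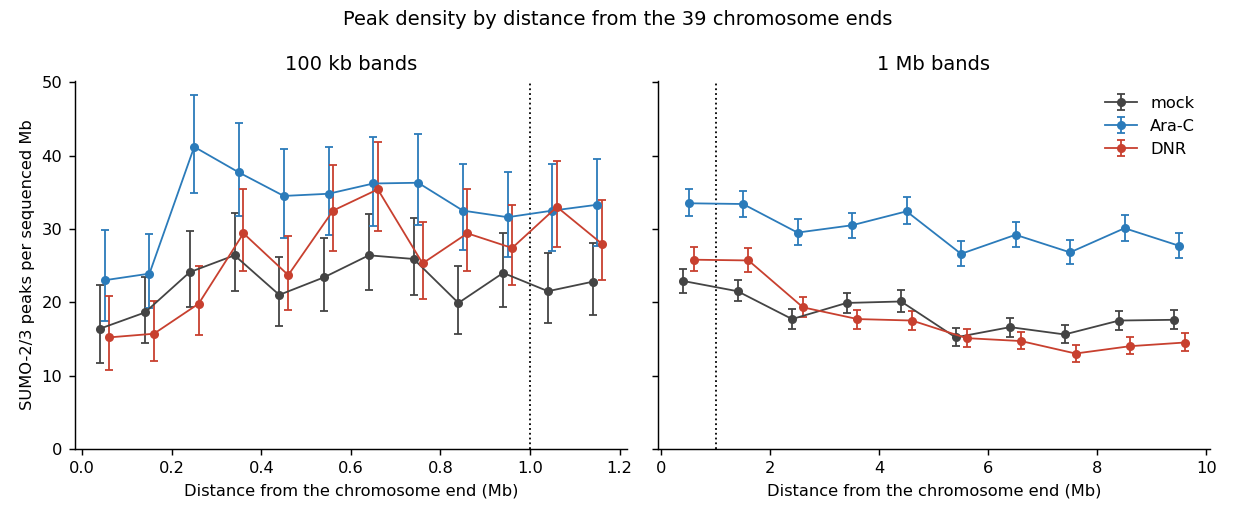
SUMO-2/3 peaks per sequenced Mb (y axis) against distance from the chromosome end in Mb (x axis), in 100 kb bands (left) and 1 Mb bands (right), summed over 39 ends. Points are numbers per Mb with exact Poisson 95% intervals, and the dotted line is the 1 Mb boundary. DNR density falls from 25.8 in the first Mb to 14.5 at 9 to 10 Mb, where mock density is 17.6.

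DNR and mock peak numbers stood in different proportion at the ends and in the interior, whereas the Ara-C list was the longest in all 3 regions. There were 946 DNR and 838 mock peaks in the terminal megabases, a ratio of 1.13 (1.03 to 1.24). From 1 to 5 Mb the ratio was 1.01 (0.961 to 1.06), and in the interior it was 0.727 (0.716 to 0.738). The terminal ratio was 0.976 (0.844 to 1.13) within the outer 0.5 Mb and 0.940 (0.849 to 1.04) without the peaks that held a tandem repeat, described below. Ara-C to mock ratios were 1.47 (1.34 to 1.60) in the terminal megabases, 1.59 from 1 to 5 Mb and 1.63 in the interior.

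Across individual chromosome ends, the number of terminal peaks ranged from 2 to 79 in mock (median 19), from 4 to 113 in Ara-C (median 29) and from 0 to 93 in DNR cells (median 20). Ara-C peaks outnumbered mock peaks at 38 of 39 ends, the exception being 17q with 41 peaks in each list, and 93.3% of interior 1 Mb windows also had more Ara-C than mock peaks. DNR peaks outnumbered mock peaks at 22 ends, equalled them at 4 and were fewer at 13. From 1 to 5 Mb of the same ends, DNR peaks outnumbered mock peaks at 20 and were fewer at 19, whereas 24.0% of the interior windows had more DNR than mock peaks. Terminal density exceeded that of 1 to 5 Mb at 21 ends in mock, 18 in Ara-C and 22 in DNR cells, so the pooled excess was not shared by every arm. The median of this ratio over the 39 ends was 1.06 in mock, 0.979 in Ara-C and 1.17 in DNR cells. The 5 ends with most peaks held 34.4% of the mock, 30.3% of the Ara-C and 35.6% of the DNR members.

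The end of 18q had the most peaks in the mock and Ara-C lists, with 79 mock, 113 Ara-C and 89 DNR peaks. At 13q there were 59 mock, 67 Ara-C and 93 DNR peaks, of which 7, 5 and 16 were 300 bp or wider. At 22q the numbers were 53, 70 and 58, and at 20q they were 42, 52 and 45. Both ends of chromosome 18 were rich in peaks, but at 18p the DNR list was the shortest, with 55 mock, 64 Ara-C and 37 DNR peaks. The end of 10q went the other way, with 24 mock, 33 Ara-C and 52 DNR peaks. At 12q there were 38, 58 and 41 peaks. The end of 4q had 34 mock, 45 Ara-C and 27 DNR peaks, and its terminal density was 7.28, 5.32 and 11 times that of the next 4 Mb, the highest ratio in each list. The end of 17p was the only one without a DNR peak, and had 3 mock and 13 Ara-C peaks.

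**Figure D2:**
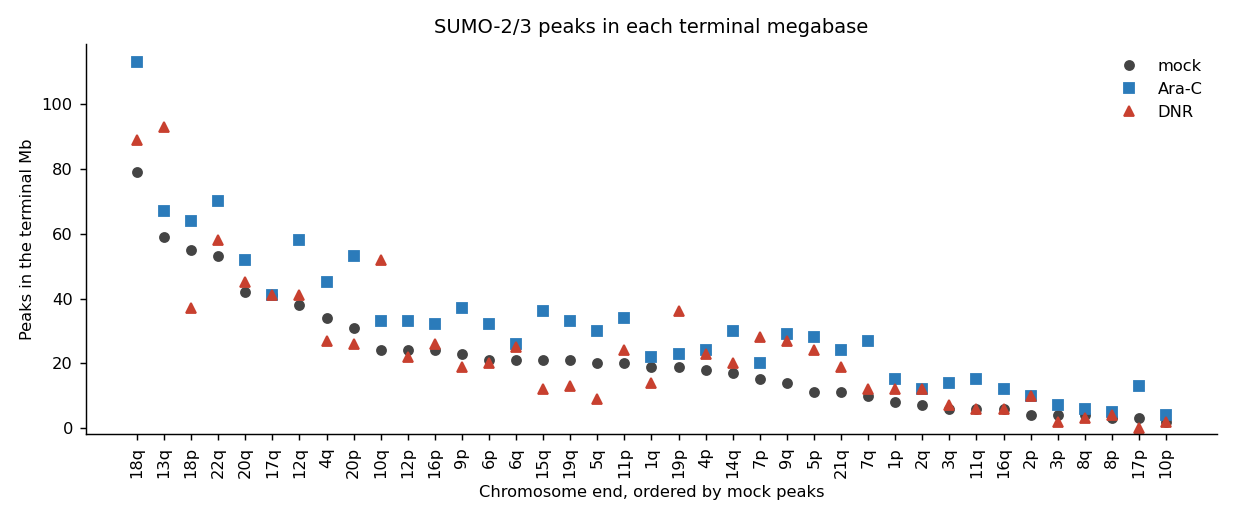
Number of SUMO-2/3 peaks in the terminal Mb (y axis) at each of 39 chromosome ends (x axis, ordered by mock peaks), with 1 point per list. Ara-C points lie above mock points at 38 ends, and DNR points lie above them at 22, including 13q (93 against 59) and 10q (52 against 24).

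The members were mostly narrow. Peaks of 150 bp made up 46.8% of the mock, 46.8% of the Ara-C and 46.4% of the DNR members, and mean widths were 206, 202 and 215 bp. Peaks of 300 bp or more made up 13% of terminal mock peaks (10.9 to 15.5), against 11.9% from 1 to 5 Mb and 9.75% of all autosomal mock peaks. They made up 10.3% of terminal Ara-C peaks (8.68 to 12.1), against 8.95% from 1 to 5 Mb and 7.96% overall. In these lists the 1 to 5 Mb share lay within the interval of the terminal share. In the DNR list they made up 12.1% (10.1 to 14.3), against 8.50% from 1 to 5 Mb and 5.25% overall. Without the peaks that held a tandem repeat, described below, the terminal DNR share was 5.47% (4.06 to 7.34), or 41 of 749 peaks. With the same filter, 128 of 2725 DNR peaks were this wide from 1 to 5 Mb and 1188 of 28402 in the interior. The filtered terminal shares were 12.3% in mock and 10.5% in Ara-C cells. With repeats kept in, 114 DNR and 109 mock members were this wide, a ratio of 1.05 (0.797 to 1.37), while the ratio was 0.723 from 1 to 5 Mb and 0.357 in the interior. The widest member measured 750 bp in mock, 950 bp in Ara-C and 3150 bp in DNR cells. There were 16, 21 and 33 members of 500 bp or more.

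Tandem repeats set the wide DNR members apart from the wide members of the other lists. A peak was counted as holding a tandem repeat when a 300 bp window on its midpoint held a 12-base word at least 3 times with copies at least 7 bp apart, which leaves out homopolymers and the shortest microsatellites. Among wide terminal peaks, 73 of 114 DNR peaks held such a repeat (64%, 54.9 to 72.3), against 11 of 109 mock peaks (10.1%, 5.73 to 17.2) and 3 of 126 Ara-C peaks (2.38%, 0.813 to 6.77). Repeated words covered at least 50% of the bases of 53 wide DNR members, 6 wide mock members and 1 wide Ara-C member, and in the 53 DNR members the median spacing was 38 bp. Promoters, in contrast, held 27 wide mock, 31 wide Ara-C and 5 wide DNR members. Among members of all widths, 197 DNR peaks (20.8%), 40 mock peaks (4.78% of the 837 with a complete window) and 59 Ara-C peaks (4.80%) held a repeat. Windows tiled over all sequenced terminal DNA held one in 7.17%, so the mock and Ara-C shares lay below the sequence itself and the DNR share above it.

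DNR to mock peak numbers split by this feature. Members with a tandem repeat numbered 197 under DNR and 40 in mock cells, a ratio of 4.92 (3.49 to 7.10), close to the ratio of 4.73 (3.70 to 6.12) from 1 to 5 Mb. Members without one numbered 749 and 797, a ratio of 0.940 (0.849 to 1.04), against 0.913 from 1 to 5 Mb. Among wide members without a repeat there were 41 DNR and 98 mock peaks, a ratio of 0.418 (0.283 to 0.608), against 0.363 from 1 to 5 Mb. The share of DNR peaks with a repeat was 2.90 times that of tiled windows at the ends and 2.96 times from 1 to 5 Mb. The share of wide DNR peaks with a repeat was 51.3% from 1 to 5 Mb and 12.6% in the interior, where tiled windows held a repeat in 4.03% and 1.05%. For Ara-C against mock, the terminal ratio was 1.48 (0.971 to 2.26) with a repeat and 1.47 (1.34 to 1.61) without. The 197 repeat-holding DNR members lay at 29 of the 39 ends, with 35 at 13q, 21 at 10q, 15 at 18q and 13 at 12q. Their median GC content was 56.0%, 55.3% lay in introns and 5.08% in promoters, and 19 of them overlapped a peak of another list. On average, 98.0% of the 50-base stretches within terminal DNR peaks were unique in the assembly, compared with 99.3% in mock and 99.0% in Ara-C members.

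**Figure D3:**
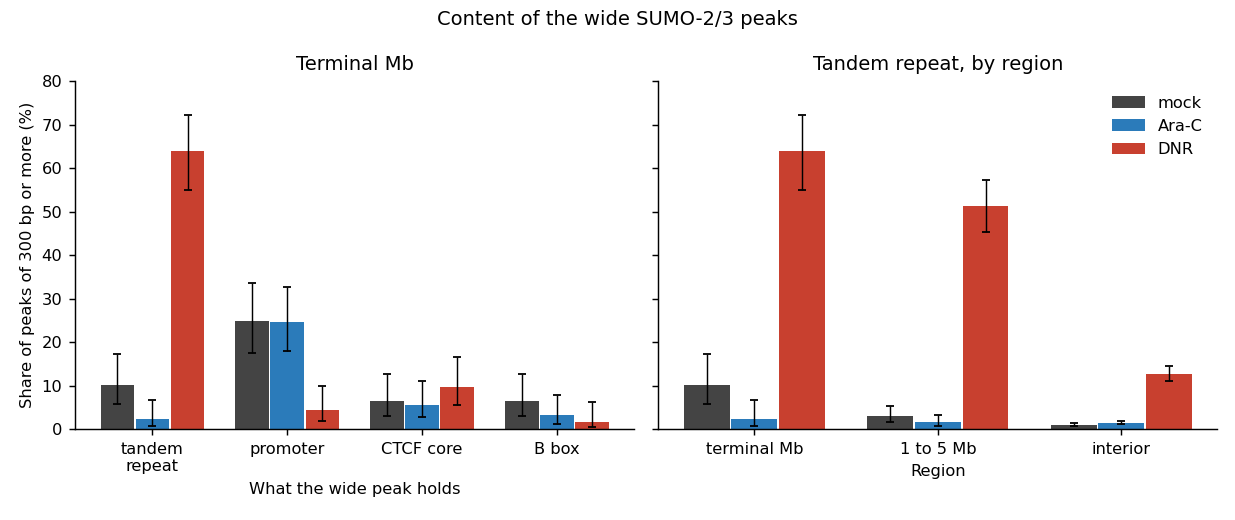
Share of peaks of 300 bp or more (y axis, %) that hold a tandem repeat, lie in a promoter, or hold a CTCF core or B box consensus in the terminal Mb (left), and share with a tandem repeat by region (right). Bars are shares with Wilson 95% intervals, with 109 mock, 126 Ara-C and 114 DNR peaks in the terminal Mb. Tandem repeats are in 64% of the wide terminal DNR peaks and in 10.1% and 2.38% of the mock and Ara-C peaks.

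The widest DNR members were arrays of this kind. The 3150 bp peak at chr22:50775601-50778750 lay between genes, 4558 bp from the nearest start site of a coding gene (PPP6R2, a regulatory subunit of protein phosphatase 6), and 93.3% of its bases fell in repeated words. The same array held 4 separate mock peaks that covered 950 bp and 2 Ara-C peaks that covered 350 bp, so it was marked in all 3 lists but as an unbroken region only under DNR. The 1900 bp peak at chr2:242806351-242808250 was intergenic near RTP5, with 88.3% of its bases in repeated words, and no mock or Ara-C peak touched it. The same was true of the 1050 bp peak at chr14:107147451-107148500 within the immunoglobulin heavy chain locus, of the 950 bp peak at chr16:90098251-90099200 in an intron of GAS8 (a subunit of the dynein regulatory complex of cilia), and of the 900 bp peak at chr11:356551-357450 near B4GALNT4 (a glycosyltransferase).

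The widest mock and Ara-C members included promoters, exons and arrays. The 750 bp mock peak at chr4:51451-52200 lay in the promoter of ZNF595, which encodes a zinc finger protein, and was 550 bp wide under Ara-C and 250 bp under DNR. A second 750 bp mock peak, chr11:189601-190350, lay in an intron of BET1L (a SNARE protein of Golgi transport), held a match to the CTCF core consensus and words that recurred at a spacing of 121 bp, and was touched by a 350 bp Ara-C peak and a 700 bp DNR peak. The promoter peak of TRIM41 (a RING-type ubiquitin ligase), chr5:180649001-180649700, was 700 bp wide in mock, 600 bp in Ara-C and 200 bp in DNR cells. The 700 bp mock peak at chr19:925151-925850, in the promoter of ARID3A (an AT-rich DNA-binding transcription factor), met a 300 bp Ara-C peak and no DNR peak. The widest Ara-C member, chr1:249167601-249168550, was the intergenic peak with the B box match, and was 500 bp in mock, 950 bp in Ara-C and 300 bp in DNR cells. Another 950 bp Ara-C peak, chr12:133634651-133635600, lay in an exon of ZNF84, where words recurred at a spacing of 168 bp, and met 2 mock and 2 DNR peaks of at most 350 and 200 bp. The 800 bp Ara-C peak at chr18:108701-109500 was the array in the ROCK1P1 pseudogene, and met 1 mock peak of 250 bp and 2 DNR peaks of at most 700 bp. The 700 bp Ara-C peak over the start site of ZNF268, chr12:133757851-133758550, met a 350 bp mock peak and no DNR peak. Another 700 bp Ara-C peak, chr5:180615401-180616100 in the non-coding RNA gene LINC01962, met no mock peak and a 150 bp DNR peak. The 650 bp mock peak at chr18:77551501-77552150 was intergenic near KCNG2, and met a 300 bp Ara-C peak and no DNR peak.

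GC content was high in the members of every list, as it was in the terminal sequence itself, which had 48.4% GC against 47.2% from 1 to 5 Mb and 40.5% in the interior. Median GC content was 54.0% for mock, 53.6% for Ara-C and 55.9% for DNR members. Members with at least 60% GC made up 31% of the mock (28 to 34.2), 31% of the Ara-C (28.5 to 33.6) and 36.6% of the DNR list (33.6 to 39.7), against 26.5%, 25.1% and 25.7% from 1 to 5 Mb and 10.7%, 8.49% and 6.14% in the interior. When 1 kb bins were grouped by GC content and terminal peaks were set against the number that 1 to 5 Mb densities at equal GC would give, the ratios were 1.10 in mock, 1.02 in Ara-C and 1.22 in DNR cells. Set against interior densities at equal GC, they were 0.794, 0.80 and 1.52, so only the DNR list was denser at the ends than equally GC-rich interior sequence. Outside promoters, the ratios to the interior were 0.941 in mock, 0.907 in Ara-C and 1.52 in DNR cells. Peaks that held a tandem repeat are included in these ratios.

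With bins split at 50% GC, the contrast between DNR and mock turned with GC content at the chromosome ends and, to a lesser extent, from 1 to 5 Mb. In terminal bins under 50% GC there were 304 DNR and 407 mock peaks, a ratio of 0.747 (0.642 to 0.869), against 0.887 (0.826 to 0.954) from 1 to 5 Mb and 0.764 in the interior. In terminal bins of 50% GC or more there were 642 DNR and 431 mock peaks, a ratio of 1.49 (1.32 to 1.69), while the ratio was 1.14 (1.07 to 1.23) from 1 to 5 Mb and 0.596 (0.576 to 0.617) in the interior. Such bins made up 40.7% of the terminal, 35.7% of the 1 to 5 Mb and 9.42% of the interior sequence. The richest class, of 65% GC or more, differed. Its ratio was 1.24 (0.927 to 1.67) at the ends, 0.748 (0.618 to 0.905) from 1 to 5 Mb and 0.326 in the interior. In bins of that class without promoters, the ratios were 2.41 (1.57 to 3.76), 1.28 (0.994 to 1.64) and 0.707. For peaks that lay outside promoters, the GC-rich ratio was 1.79 (1.56 to 2.06) at the ends, 1.31 (1.21 to 1.41) from 1 to 5 Mb and 0.746 (0.718 to 0.774) in the interior. When those among them that held a tandem repeat were left out, it was 1.42 (1.23 to 1.65) at the ends, 1.14 (1.05 to 1.24) from 1 to 5 Mb and 0.719 (0.692 to 0.747) in the interior. For Ara-C against mock, GC-rich ratios were 1.52 (terminal), 1.54 (1 to 5 Mb) and 1.42 (interior).

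**Figure D4:**
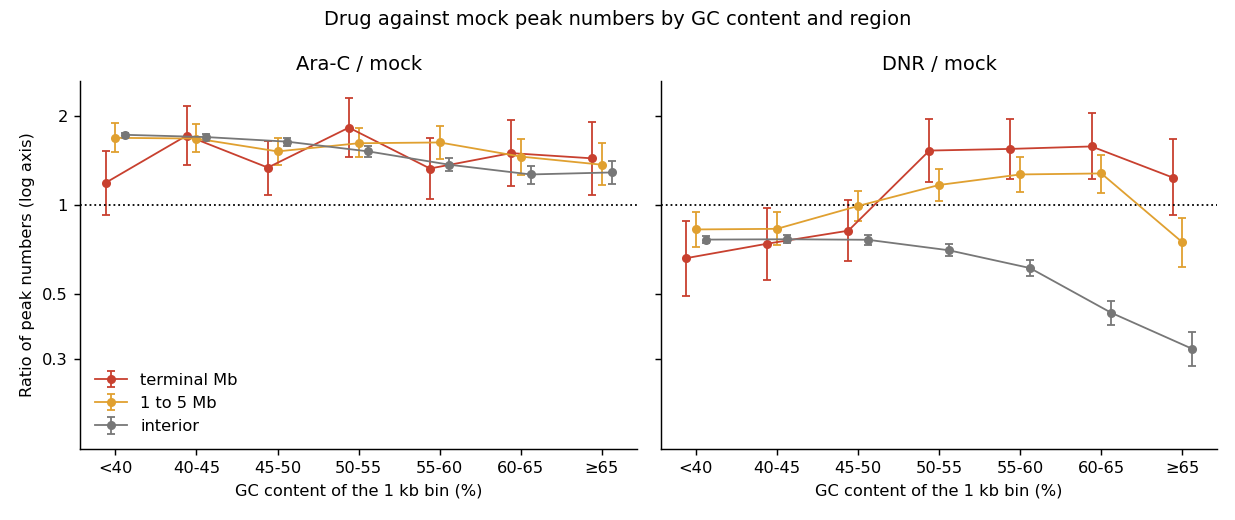
Ratio of peak numbers, Ara-C to mock (left) and DNR to mock (right), on a log axis, against the GC content of 1 kb bins in %, for the terminal Mb, 1 to 5 Mb and the interior. Bars are exact conditional binomial 95% intervals, and the dotted line marks equal numbers. At 60 to 65% GC the DNR to mock ratio is 1.58 in the terminal Mb and 0.432 in the interior. At 65% GC or more it is 1.24 in the terminal Mb, 0.748 from 1 to 5 Mb and 0.326 in the interior.

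Gene classes of the members differed between lists at promoters, here the 2 kb upstream of a coding transcript's start site, and in introns. Promoters took 4.54% of terminal sequence and 15.5% of mock members (13.2 to 18.1), 13.3% of Ara-C members (11.5 to 15.3) and 6.87% of DNR members (5.43 to 8.66). These shares were 3.42, 2.92 and 1.51 times the share of sequence. With all annotated genes in place of coding genes, promoters took 17.4% of the sequence and 28.8%, 27.4% and 20.7% of members, and the promoter counts were 241 in mock and 196 in DNR cells. From 1 to 5 Mb the promoter shares were 11.3%, 9.08% and 4.69%. In numbers, 65 DNR and 130 mock members lay in promoters, a ratio of 0.50 (0.365 to 0.678), which was 0.420 (0.344 to 0.512) from 1 to 5 Mb and 0.274 (0.255 to 0.294) in the interior. Promoter peaks were therefore fewer in the DNR list at the ends too, but in a smaller proportion than in the interior. Outside promoters the terminal list had 881 DNR and 708 mock peaks, a ratio of 1.24 (1.13 to 1.38), against 1.09 (1.03 to 1.14) from 1 to 5 Mb and 0.770 in the interior. Without peaks that held a tandem repeat, the terminal numbers were 694 and 670, a ratio of 1.04 (0.930 to 1.15). Introns held 343 mock, 539 Ara-C and 460 DNR members (40.9%, 43.9% and 48.6%), exons 8.0%, 8.87% and 8.77%, and intergenic sequence 35.6%, 34.0% and 35.7%. The DNR to mock ratio in introns was 1.34 (1.16 to 1.55), against 1.04 (0.964 to 1.13) from 1 to 5 Mb and 0.761 in the interior.

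Of 638 coding genes with a start site in a terminal megabase, 121 had a promoter peak in mock (19.0%), 152 in Ara-C (23.8%) and 55 in DNR cells (8.62%). The mock and Ara-C shares were close to those of genes elsewhere, which were 19.3% and 23.7% from 1 to 5 Mb and 20% and 24.4% in the interior, while the DNR share was 8.14% from 1 to 5 Mb and 5.62% in the interior. Of the 121 mock genes, 78 had one again under Ara-C (64.5%) and 22 under DNR (18.2%, 12.3 to 26.0). The latter share was 12.8% from 1 to 5 Mb and 10.6% in the interior. Promoter peaks in all 3 lists were found at 20 genes, against 21 of 1744 from 1 to 5 Mb and 247 of 16847 in the interior. Another 26 genes had one only in the DNR list, against 79 and 443. Ranked by summed width, the first of the 20 were ZNF595, TRIM41, GRK1 (rhodopsin kinase), METTL26, CSNK1D (casein kinase 1 delta), TRABD, TYMP (thymidine phosphorylase), GOLGA3 (a golgin), MYT1 (a zinc finger transcription factor) and SCGB1C1 (a secretoglobin). At GRK1 the promoter held 200 bp of peak in mock, 200 bp in Ara-C and 900 bp in DNR cells, the latter in 3 peaks. At MYT1 the widths were 250, 300 and 450 bp. ZBTB45, which encodes a BTB zinc finger protein, had 550 bp in both mock and Ara-C and none in DNR cells, and CYP2E1 (an ethanol-metabolising cytochrome P450) had 450, 300 and 0 bp. CALY, which encodes a vesicle protein of neurons, went the other way, with no promoter peak in mock or Ara-C and 3 peaks of 1050 bp in all under DNR. The promoter of TUBGCP6, a gamma-tubulin complex component, had no mock peak, 700 bp under Ara-C and 350 bp under DNR.

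Several gene groups lie within these megabases. For comparison, of all coding genes there, 48.2% had a peak within 2 kb of the gene body in mock, 62.3% in Ara-C and 48.4% in DNR cells. Of the neutrophil granule genes on 19p, AZU1 (azurocidin) had 2 promoter peaks in mock, 3 in Ara-C and none in DNR cells, while ELANE (neutrophil elastase) had 2 and CFD (complement factor D) had 1 under DNR only. No list had a promoter peak at PRTN3 (proteinase 3). With 2 kb on either side of the gene body included, 2 of these 4 genes had a peak in mock, 2 in Ara-C and 4 in DNR cells. Such windows overlap between some neighbouring genes, here and in the interferon-response group, so a single peak can count for both neighbours. Among 6 interferon-response genes, IRF7 and ISG15 each had 1 promoter peak in mock, 2 in Ara-C and 0 in DNR cells. IFITM3 had 1 mock peak and IFITM2 had 1 Ara-C peak, each of 150 bp. Around the gene bodies, 3 of the 6 had a peak in mock, 5 in Ara-C and 3 in DNR cells, the last being ISG15, IRF7 and IFITM5. Of the 5 alpha-globin genes on 16p, only HBQ1 had a peak within 2 kb of its body, of 250 bp in mock, 300 bp in Ara-C and 150 bp in DNR cells, and only the DNR peak had its midpoint in the promoter. RTEL1, a helicase needed for telomere maintenance, had a peak near its body in each list and none at its promoter. Of 69 genes of subtelomeric families, 1 had a peak in mock, 1 in Ara-C and 3 in DNR cells. Of all annotated terminal genes, 27%, 35% and 27.8% did. The family gene with peaks in every list was ZNF595, and WASH8P and OR4F13P had peaks under DNR only. Part of the outermost sequence is shared between chromosomes, and how much of these family genes was unique was not tested. Few peaks there therefore cannot be told apart from reads that could not be placed. Zinc finger genes with a ZNF symbol had a peak over an exon at 11 of 52 terminal genes in mock (21.2%, 12.2 to 34.0), 13 in Ara-C (25%, 15.2 to 38.2) and 9 in DNR cells (17.3%, 9.38 to 29.7), against 13%, 17.4% and 5.80% of 69 such genes from 1 to 5 Mb and 16.2%, 19.6% and 7.83% of 383 in the interior.

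A match to the CTCF core consensus, the site bound by the insulator protein CTCF, was in 34 mock members (4.06%), 27 Ara-C members (2.20%) and 20 DNR members (2.11%), and in 0.124% of tiled terminal windows. From 1 to 5 Mb the DNR share was 0.873% and in the interior 0.626%, against 3.46% and 2.68% of mock peaks and 2.63% and 1.65% of Ara-C peaks. Of the 20 DNR members with a match, 8 also held a tandem repeat and 8 lay on 14q. Of the 34 mock and 27 Ara-C members with a match, 5 and 7 lay on 14q, and 3 in each list held a tandem repeat. The B box consensus was in 11 mock members (1.31%), 6 Ara-C members (0.488%) and 7 DNR members (0.740%), and in 0.336% of tiled windows. Of wide members, 7 mock, 4 Ara-C and 2 DNR peaks held it. Runs of guanines, taken as 4 runs of at least 3 G separated by at most 7 bases on either strand, were in 10.3%, 10.0% and 10.9% of members, against 8.25% of tiled windows. A tandem pair of the telomere unit TTAGGG on either strand was in 1 mock, 1 Ara-C and 3 DNR members, and in 0.0990% of tiled windows. CpG island criteria, here at least 50% GC and at least 0.6 of the CpG pairs that base composition would give, were met by 17.3% of mock, 15.5% of Ara-C and 13.3% of DNR members, against 6.82% of tiled windows.

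Most members appeared in a single list. A mock member shared at least 1 bp with an Ara-C peak in 22.1% of cases (19.4 to 25), against 20.3% from 1 to 5 Mb and 16.1% of all autosomal mock peaks, and with a DNR peak in 7.16% (5.60 to 9.11), against 5.42% and 3.39%. Of the DNR members, 6.03% (4.68 to 7.73) overlapped a mock peak, against 5.27% from 1 to 5 Mb and 4.49% of all DNR peaks, and 7.72% (6.18 to 9.59) an Ara-C peak, against 5.98% and 5.50%. Wide DNR members overlapped a mock peak in 15.8% of cases (10.2 to 23.6), against 14.4% from 1 to 5 Mb and 20.9% of wide interior DNR peaks. As elsewhere on the chromosomes, overlap was more frequent among wide than among narrow members: 62.4% of wide mock members and 8.93% of those of 150 bp were found again under Ara-C, and 18.3% and 2.81% under DNR. From 1 to 5 Mb these shares were 62.1% and 7.74% under Ara-C and 15.7% and 2.58% under DNR. Merging the lists gave 2698 terminal regions, of which 617 were mock only, 985 Ara-C only and 835 DNR only. Mock and Ara-C shared 152, mock and DNR 24, Ara-C and DNR 45, and all 3 lists shared 40. Regions of DNR alone were 30.9% of the terminal regions, 27.8% of those from 1 to 5 Mb and 21.2% of those in the interior, and regions in all 3 lists were 1.48%, 1.09% and 0.598%. In the same order, regions of mock alone were 22.9%, 23.1% and 26.0%, and those of Ara-C alone 36.5%, 40.7% and 46.1%. Mock and Ara-C shared 5.63%, 5.46% and 4.69%, mock and DNR 0.890%, 0.828% and 0.592%, and Ara-C and DNR 1.67%, 1.12% and 0.840%.

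The 40 shared regions had a median width of 475 bp, against 150 bp for regions of mock or Ara-C alone and 200 bp for those of DNR alone. Regions in all 3 lists were likewise wide from 1 to 5 Mb and in the interior, with medians of 400 bp and 450 bp, against 150 bp for regions of a single list. A shared region is the union of overlapping peaks, so part of its greater width follows from the merging. Of the 40 terminal regions, 9 held a CTCF core match, 9 lay in promoters and 10 held a 12-base word repeated at least 3 times. Here the word could lie anywhere in the region and recur at any spacing. Some regions, among them several on 14q, held both a match and a repeated word. A wider region has more room for either, and the same counts were not made for other regions. By width the first 8 were the 22q array, the array in ROCK1P1 (chr18:108701-109950), the 1q region with the B box match, the ZNF84 exon, a region near the potassium channel gene KCNG2 (chr18:77551301-77552150), and the ZNF595, TRIM41 and BET1L regions.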

How the data were processed

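Peaks of SUMO-2/3 chromatin immunoprecipitation and sequencing were taken from 3 deposited lists, 1 per condition (mock, Ara-C, DNR), as positions only, with no height or score. According to the methods and labels, the authors aligned single-end reads of 50 bases to hg19 with CASAVA 1.8.2, scaled and input-subtracted them in 50 bp bins with Pasha, and called peaks where the signal reached 32 over a run above 100 bp, bridging breaks of up to 100 bp. The authors pooled 3 biological replicates before each library. The 3 input libraries have no file used here. Depth is unknown.

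Peak starts were read as 1-based and ends as 1 past the last base, as the 50 bp grid implies. Chromosome lengths and sequence came from GRCh37 and gene classes from GENCODE 44 lifted to that build, by the class of the peak midpoint, with promoters before exons and introns. Tiled windows of 300 bp gave the sequence background. Counts and intervals were computed with Python 3.11.15, NumPy 2.4.6, pandas 2.3.3 and SciPy 1.17.1, and the functions were tested on simulated data. Named peaks were the 5 widest per list and up to 8 widest shared regions, and named genes were up to 10 with promoter peaks in all lists, the 5 widest promoter peaks per list and the fixed gene groups. Members and lists were chosen with earlier results of these data known. The tandem-repeat spacing of 7 bp, the B box consensus and the zinc finger exons were chosen after values were seen. Alternatives changed the window, the width threshold, the promoter, the overlap and the normalization.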

Additional observations from a re-analysis of the deposited data

How the results depend on the processing

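No paired analysis was possible because no condition had more than 1 library. Of 126 alternatives to 16 values, 86 stayed within the counting interval of the value reported, 37 left it and 3 crossed 1. Crossing 1 were the Ara-C density ratio as a median over ends (0.979) and the DNR to mock number within 0.5 Mb (0.976) or without repeat-holding peaks (0.940, added after seeing the data). Density ratios against 5 to 10 Mb were 1.39 (mock), 1.19 (Ara-C) and 1.81 (DNR). Medians over ends were 1.06 in mock and 1.17 in DNR. Per unique Mb, an addition, they were 1.27, 1.17 and 1.42. The DNR ratio was 1.00 at 0.5 Mb, 1.42 at 2 Mb, 1.42 for peaks of at least 200 bp and 1.16 without repeats; the Ara-C ratio was 1.14 at 200 bp. Wide shares were 17.1%, 14.1% and 16.1% after merging within 500 bp, and 22.9%, 21.5% and 21.8% at 250 bp. The wide DNR share was 5.47% without repeats. Shares of 60% GC over 500 bp were 26.5%, 26.0% and 32.5%; at 0.5 Mb they were 25.6% (Ara-C) and 28.4% (DNR), and at 200 bp 35.3% (Ara-C). Promoter shares with all annotated genes were 28.8%, 27.4% and 20.7%, and at 200 bp 19.7% (mock) and 15.3% (Ara-C). Mock peaks found again under Ara-C were 25.9% at 0.5 Mb, 28.7% at 200 bp, 18.3% with 50% shared and 31.6% within 500 bp; under DNR they were 5.37% with 50% shared and 13.8% within 500 bp. The causes were not tested, apart from what each alternative leaves out or adds by construction. Without 18q every value stayed within its interval, but the interval of the Ara-C density ratio then included 1 (1.03, 0.964 to 1.10), as it did when standardised for GC (1.02, 0.966 to 1.08). The GC-standardised interval is an exact Poisson interval of the terminal number. It leaves out the counting error of the 1 to 5 Mb densities.

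Peak lists without heights cannot show how strong a region was in a list that missed it, and a region just under the threshold counts as absent. Copy number of HL-60 chromosome ends and of tandem arrays was not analysed here.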
